A study of Mus musculus with 9 samples.

Results

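The genes described here are 10 genes of the amino acid shortage response that runs through the transcription factor Atf4, followed in the mouse substantia nigra through fasting. They are the transcription factors Atf4 (ENSMUSG00000042406), Atf5 (ENSMUSG00000038539) and Ddit3 (ENSMUSG00000025408), the feedback and stress genes Trib3 (ENSMUSG00000032715) and Chac1 (ENSMUSG00000027313), the enzymes Asns (ENSMUSG00000029752), Phgdh (ENSMUSG00000053398), Psat1 (ENSMUSG00000024640) and Mthfd2 (ENSMUSG00000005667), and the transporter subunit Slc3a2 (ENSMUSG00000010095). They were chosen by symbol from the 20591 genes of the count table, and all 10 were found and passed the filter on low counts that left 20535 genes. The study profiled polyA RNA of substantia nigra lysate, the midbrain region that holds dopaminergic neurons, from wild type C57BL/6 mice that had received sham surgery. The mice were 12 weeks old at the start, and each fast ran for 24 hours from 2 hours ahead of the dark phase. The 9 libraries form 3 groups of 3: mice fed ad libitum for 1 week, mice fasted for 1 day, and mice on intermittent fasting for 1 week, which comprised 3 fasting days. All of them were sham operated and were moved between cages daily, the ad libitum mice included. Whether every library is its own animal is not stated, and the p-values therefore reflect the spread among these libraries, which may be partly technical.

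When amino acids run short, uncharged transfer RNAs activate the kinase GCN2, which phosphorylates the initiation factor eIF2α. Protein synthesis then slows, while translation of the Atf4 message, held back by upstream open reading frames, increases. ATF4 protein turns on genes that import and make amino acids, and with lasting stress it induces Ddit3, which encodes CHOP, and Trib3, which feeds back on ATF4. Other eIF2α kinases, such as PERK of the endoplasmic reticulum, lead to the same factor, so the program is often called the integrated stress response. RNA-seq measures the messages of these genes and not the translation of Atf4 or the phosphorylation of eIF2α.

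ATF4 and its partners bind a composite element whose core reads TGATGNAA on either strand, and the members' promoters were searched for it because it is the sequence by which target genes respond to the pathway. The windows were those of RefSeq on the build GRCm38.p6, 250 bases before to 50 bases after each transcription start, and gave 12 promoters for the 10 members. A match was present in 3 of these 12, one each for Asns, Chac1 and Trib3, against 3.97% of all 32851 promoter windows of the same length. The 3 matches read as follows on the strand of the gene, with the core in capitals. The Asns match lies at chr6:7693214-7693243 on the minus strand, with its first base 23 bases before the start. In the Chac1 promoter, at chr2:119351038-119351067 on the plus strand, the core is on the opposite strand, 193 bases before the start. For Trib3, at chr2:152344028-152344057 on the minus strand, it is also on the opposite strand, 15 bases after the start.
Asns: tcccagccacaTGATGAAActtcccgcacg
Chac1: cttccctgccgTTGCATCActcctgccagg
Trib3: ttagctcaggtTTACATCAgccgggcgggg
The form TGATGCAA, which is contained in the first motif, was found in the Chac1 promoter alone among the members and in 0.895% of all windows. The endoplasmic reticulum stress element ERSE was in 0 of the 12 member promoters and in 0.119% of all windows. These are matches of letters within the windows searched.

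In ad libitum mice the members spanned a wide range of level per length, given here as CPM (counts scaled to library size with TMM factors) per kilobase of exon. Phgdh was at 41.6 ± 2.59 CPM per kilobase (SD, n = 3), Psat1 at 40.8 ± 1.49 and Atf4 at 39.6 ± 0.895, and these neighbours did not differ beyond their spread. Asns, at 32.9 ± 1.49, and Slc3a2, at 29.6 ± 0.851, came next, followed by Ddit3 at 15.0 ± 0.866, Atf5 at 8.30 ± 0.717, Mthfd2 at 6.18 ± 0.277 and Chac1 at 4.15 ± 0.525. Trib3 was the lowest at 0.309 ± 0.0296 CPM per kilobase, from 13 to 41 counts per library, so its values carry a large counting error. The enzymes that begin serine synthesis, asparagine synthetase and Atf4 itself were thus well represented in unfasted tissue, while Trib3 and Chac1, which are known as markers of strong stress, were at the low end. The lysate holds many cell types, and in such bulk RNA fewer cells of a type and less RNA per cell cannot be told apart.

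No member passed the test in any comparison. After 1 day of fasting 0 of the 10 members had an adjusted p under 0.05 in edgeR's quasi-likelihood test, against 0.0584% of all genes tested (12 genes). After 1 week it was 0 of 10 against 0.307% (63 genes), and between 1 week and 1 day it was 0 of 10 against 0.00% (0 genes). With so few genes called in all, a count of 0 among 10 genes is near the background. At an unadjusted p under 0.05 there was 1 member of 10 after 1 day, where 9.27% of all genes (1904) were under it, so this count is near the background. There were 0 after 1 week (11.2% of all genes, 2305) and 0 between 1 week and 1 day (5.22% of all genes, 1071). DESeq2 and voom with quality weights also called 0 members in each of the 3 comparisons.

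The members showed no shared direction. After 1 day 3 estimates were above 0 and 7 below, with a median log2 fold change of -0.06, against 0.0004 for all genes. After 1 week 4 were above and 6 below, with a median of -0.02 against -0.001 for all genes. The 95% intervals, which are not adjusted, show what the 9 libraries could resolve. None of the 10 reached a 2-fold rise at its upper bound, the highest upper bound being 1.64-fold for Psat1 after 1 day and 1.61-fold for Atf5 after 1 week. At the lower bound, Chac1 after 1 day was the member below a 2-fold decrease, at 0.496-fold. Smaller changes remain within these intervals. Both fasted groups were set against the same 3 ad libitum libraries, so their values are given side by side and are not independent of each other.

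**Figure D1:**
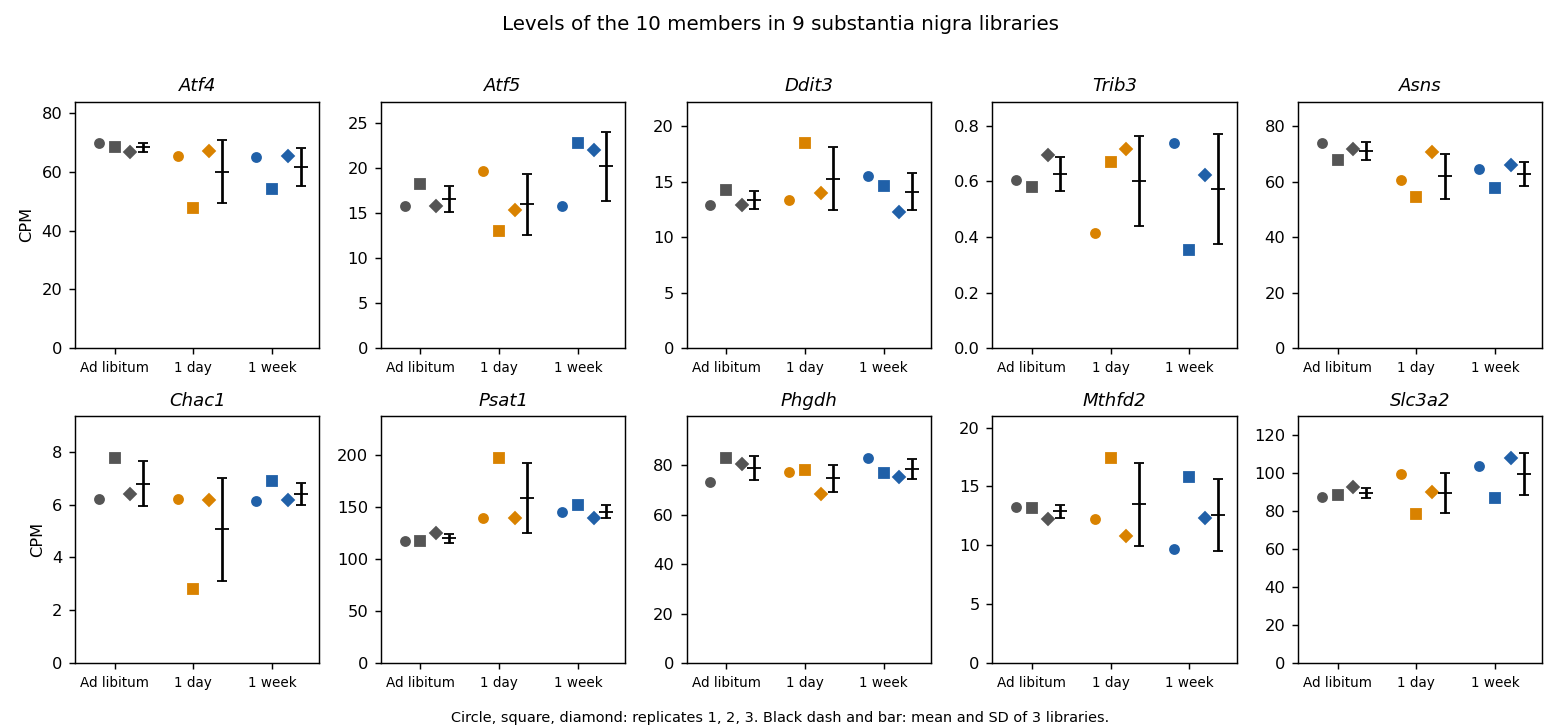
Levels of the 10 genes in the 9 libraries. The vertical axis is CPM and starts at 0, each symbol is 1 library (circle, square and diamond for replicates 1, 2 and 3), and the black dash and bar are the mean and SD of 3 libraries. Psat1 was above all ad libitum libraries in both fasted groups, and replicate 2 of the 1 day group often lay at an edge.

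Atf4, the master regulator of the program, was at 69.9, 68.4 and 66.8 CPM in the ad libitum libraries, at 65.4, 47.8 and 66.9 CPM after 1 day and at 64.9, 54.05 and 65.5 CPM after 1 week. Its level was lowest in replicate 2 of each fasted group, the 1 day group overlapped with the ad libitum group, and the 1 week libraries were all below it. The log2 fold change was -0.19 (SE 0.14, adjusted p 0.630) after 1 day and -0.15 (SE 0.14, adjusted p 0.739) after 1 week. Without replicate 2 of both fasted groups the values were -0.05 and -0.06. No member lay wholly below the ad libitum group after 1 day (0 of 10, against 10.3% of all genes), and after 1 week 2 members did, Atf4 and Asns, against 11.5% of all genes.

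Atf5, a related factor that is also controlled through upstream open reading frames, was at 15.7, 18.2 and 15.7 CPM in ad libitum mice. It was at 19.6, 13.0 and 15.3 CPM after 1 day and at 15.7, 22.8 and 21.9 CPM after 1 week. In the 1 week group 2 libraries were above the ad libitum range and 1 was at its lower edge, just below the lowest ad libitum library. The log2 fold change was 0.28 (SE 0.18, adjusted p 0.625) after 1 week and -0.05 (adjusted p 0.929) after 1 day. Exons of Atf5 overlap those of Il4i1 and Nup62 on the opposite strand, and the sources used here do not state whether the counting used strand.

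Ddit3, which encodes the factor CHOP of lasting stress, was at 12.9, 14.2 and 12.9 CPM in ad libitum mice, at 13.3, 18.5 and 14.0 CPM after 1 day and at 15.5, 14.6 and 12.2 CPM after 1 week. The groups overlapped, and a single library, replicate 2 of the 1 day group, stood above the rest. The log2 fold change after 1 day was 0.19 (SE 0.15, adjusted p 0.645) and was 0.03 without that library. After 1 week it was 0.08 (adjusted p 0.888). Ddit3 exons overlap those of the methionyl-tRNA synthetase gene Mars1 on the opposite strand, so reads of the pair may be mixed.

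Trib3, a pseudokinase that restrains ATF4, was at 0.605, 0.579 and 0.693 CPM in ad libitum mice, at 0.416, 0.671 and 0.715 CPM after 1 day and at 0.739, 0.354 and 0.624 CPM after 1 week. Each fasted group held libraries both above and below the ad libitum mean. Its log2 fold changes were -0.07 (SE 0.33, adjusted p 0.952) and -0.11 (SE 0.33, adjusted p 0.929), with the largest standard errors of the members. Chac1, which encodes an enzyme that breaks down glutathione and is among the most inducible ATF4 targets, was at 6.20, 7.78 and 6.41 CPM in ad libitum mice. After 1 day it was at 6.21, 2.81 and 6.18 CPM, and after 1 week at 6.15, 6.90 and 6.17 CPM. A single library, replicate 2 of the 1 day group, was at 0.454-fold of the mean of its group's other 2 libraries. The 1 day log2 fold change of -0.42 (SE 0.27, adjusted p 0.589) was -0.13 without it, and the 1 week value was -0.09 (adjusted p 0.935).

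Asns, which makes asparagine from aspartate and glutamine and is the classic gene induced by amino acid shortage, was at 74.0, 67.7 and 71.7 CPM in ad libitum mice. It was at 60.5, 54.5 and 70.7 CPM after 1 day and at 64.4, 57.8 and 65.9 CPM after 1 week. The 1 week libraries were all below the ad libitum libraries, and 1 of the 1 day libraries was within their range. The log2 fold change was -0.20 (SE 0.11, adjusted p 0.570) after 1 day and -0.18 (SE 0.11, adjusted p 0.611) after 1 week. The estimate stayed below 0 under all 18 alternatives in both comparisons, from -0.30 to -0.12 after 1 day and from -0.22 to -0.12 after 1 week, and none of these passed the test. The upper bounds of the intervals were 1.04-fold and 1.05-fold. Both Asns estimates were thus below 0 without passing the test. The alternatives reuse the same libraries, so their shared sign is no independent result.

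The serine pathway enzymes differed among themselves. Phgdh encodes the first enzyme of serine synthesis from glycolysis, and Psat1 the second. Phgdh was at 73.4, 82.9 and 80.3 CPM in ad libitum mice, at 77.4, 78.2 and 68.5 CPM after 1 day and at 83.1, 77.0 and 75.4 CPM after 1 week. The 3 groups overlapped, with log2 fold changes of -0.08 (SE 0.10, adjusted p 0.770) and -0.006 (SE 0.10, adjusted p 0.990). The intervals for Phgdh ran from 0.815-fold to 1.10-fold after 1 day and from 0.857-fold to 1.16-fold after 1 week.

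Psat1 was at 117, 117 and 125 CPM in ad libitum mice, at 140, 197 and 139 CPM after 1 day and at 145, 152 and 139 CPM after 1 week. All 6 fasted libraries were above all 3 ad libitum libraries. It was the only 1 of the 10 members to lie wholly above in either comparison, where 8.17% of all genes did so after 1 day and 10.9% after 1 week, so the count is near the background. The log2 fold change after 1 day was 0.41 (SE 0.14), or 1.33-fold with an interval of 1.08-fold to 1.64-fold, at an unadjusted edgeR p of 0.0133 and an adjusted p of 0.466. After 1 week it was 0.28 (SE 0.14), or 1.21-fold, at an adjusted p of 0.489. Without replicate 2 of the 1 day group the 1 day log2 fold change was 0.22 (adjusted p 0.583), and the 1 week value was 0.29 (adjusted p 0.126). The summed level of 13 astrocyte marker genes was between 5662 and 5866 CPM in ad libitum mice, between 5729 and 6412 CPM after 1 day and between 5942 and 6324 CPM after 1 week. It was thus above the ad libitum range in all 1 week libraries, but after 1 day in replicate 2 alone, and replicate 2 of the 1 week group had the highest Psat1 level and the lowest astrocyte sum of its group. Of these 13 genes 0 passed the test after 1 day and 1, Gjb6, rose after 1 week. In each comparison 7 of the 13 estimates were above 0, with median log2 fold changes of 0.09 and 0.09. After 1 day 1 of the 13 lay wholly above the ad libitum libraries and 2 wholly below. After 1 week 3 lay wholly above and 1 wholly below. None of the 13 was at 0 in any library. Their part in the Psat1 values was not tested.

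Mthfd2, the mitochondrial folate enzyme that carries one-carbon units from serine, was at 13.3, 13.2 and 12.2 CPM in ad libitum mice, at 12.2, 17.5 and 10.8 CPM after 1 day and at 9.64, 15.8 and 12.3 CPM after 1 week. The fasted groups spread to both sides of the ad libitum range, with replicate 2 highest in each. Its log2 fold change was 0.06 (SE 0.21, adjusted p 0.921) after 1 day and -0.04 (SE 0.21, adjusted p 0.969) after 1 week. Without replicate 2 of both fasted groups the values were -0.16 and -0.22.

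**Figure D2:**
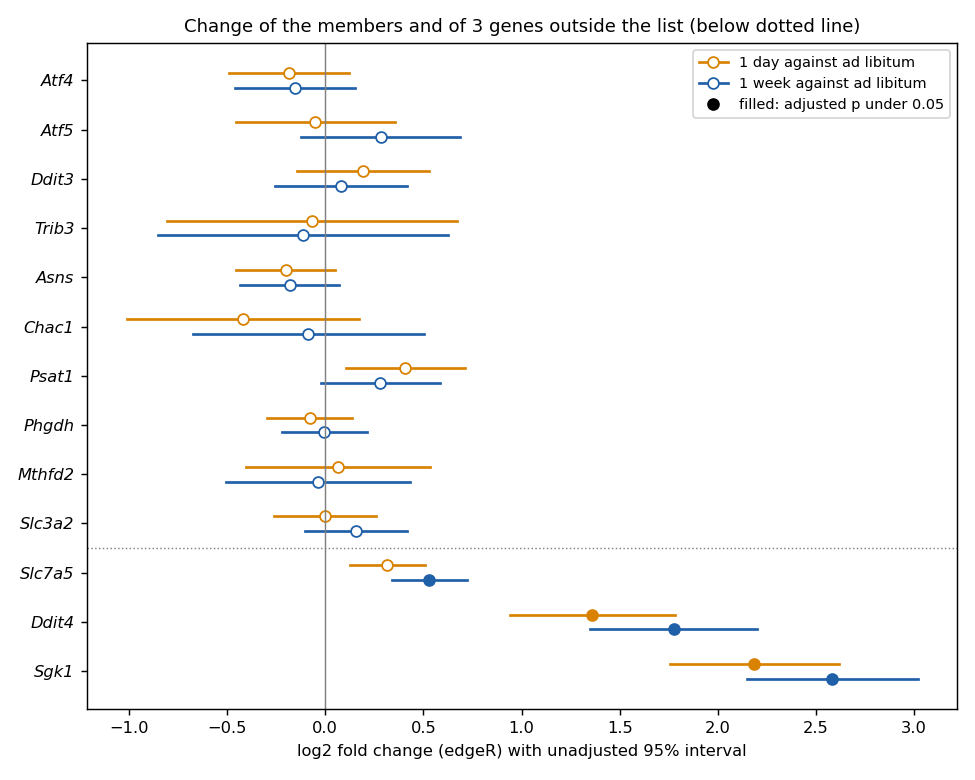
log2 fold changes of the 10 genes and, below the dotted line, of Slc7a5, Ddit4 and Sgk1, for each fasted group against ad libitum. Lines are unadjusted 95% intervals, and filled points have an adjusted p under 0.05. All points of the 10 genes are open, and the interval of Psat1 after 1 day, from 0.10 to 0.71, is the one among them that does not reach 0.

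Slc3a2 encodes the heavy chain 4F2hc, which pairs with a light chain of the Slc7 family to exchange amino acids across the membrane. It was at 87.6, 88.4 and 92.4 CPM in ad libitum mice, at 99.4, 78.6 and 90.1 CPM after 1 day and at 104, 87.0 and 108 CPM after 1 week. In the 1 week group 2 libraries were above and 1 was below the ad libitum range. The log2 fold change was -0.0008 (SE 0.12, adjusted p 0.999) after 1 day and 0.15 (SE 0.12, adjusted p 0.679) after 1 week.

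One of its partners did pass the test. Slc7a5, the light chain LAT1 that carries large neutral amino acids such as leucine across the blood-brain barrier, was at 75.7, 76.0 and 76.8 CPM in ad libitum mice. It was at 96.2, 96.5 and 91.6 CPM after 1 day and at 117, 110 and 103 CPM after 1 week. The 3 groups did not overlap at any point, and the fasted libraries were all above the ad libitum ones. Slc7a5 rose 1.44-fold after 1 week (log2 fold change 0.53, SE 0.09, adjusted p 0.0381). After 1 day it was at 1.24-fold (log2 fold change 0.32, SE 0.09, adjusted p 0.373). Of 18 alternatives 1 called the 1 day change, DESeq2 at an adjusted p of 0.0198, and 17 did not. The 1 week call was lost under 8 of 18 alternatives, 7 of which left out 1 library (any 1 ad libitum library, any 1 of the 1 week libraries, or replicate 1 of the 1 day group), with adjusted p up to 0.237, while the log2 fold change stayed between 0.48 and 0.58. Of 12 endothelial and mural cell markers 0 passed after 1 day and 1 rose after 1 week, the glucose transporter of the same barrier Slc2a1, at 1.89-fold (adjusted p 0.0380). Most of these 12 estimates were below 0: 1 was above 0 after 1 day and 4 after 1 week, with median log2 fold changes of -0.32 and -0.08. The summed level of these 12 markers was between 529 and 671 CPM in ad libitum mice, between 514 and 641 CPM after 1 day and between 647 and 729 CPM after 1 week, with none at 0. Their part in the Slc7a5 values was not tested.

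The other light chains were examined for their role beside Slc3a2, and none of them passed the test. Slc7a10, which carries serine and glycine, was at 46.8, 46.4 and 48.3 CPM in ad libitum mice, at 35.7, 16.8 and 37.1 CPM after 1 day and at 35.3, 26.0 and 25.1 CPM after 1 week. All fasted libraries were below the ad libitum libraries, with log2 fold changes of -0.66 (SE 0.26, adjusted p 0.525) and -0.71 (SE 0.26, adjusted p 0.346). Slc7a11, the cystine transporter that ATF4 is known to induce, was at 55.3, 57.1 and 93.8 CPM in ad libitum mice, at 53.2, 69.2 and 47.7 CPM after 1 day and at 88.5, 50.6 and 69.0 CPM after 1 week. Its groups overlapped widely, at adjusted p of 0.694 and 0.992. Slc7a6, Slc7a7 and Slc7a8 had adjusted p from 0.532 to 0.947 after 1 day and from 0.597 to 0.879 after 1 week.

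**Figure D3:**
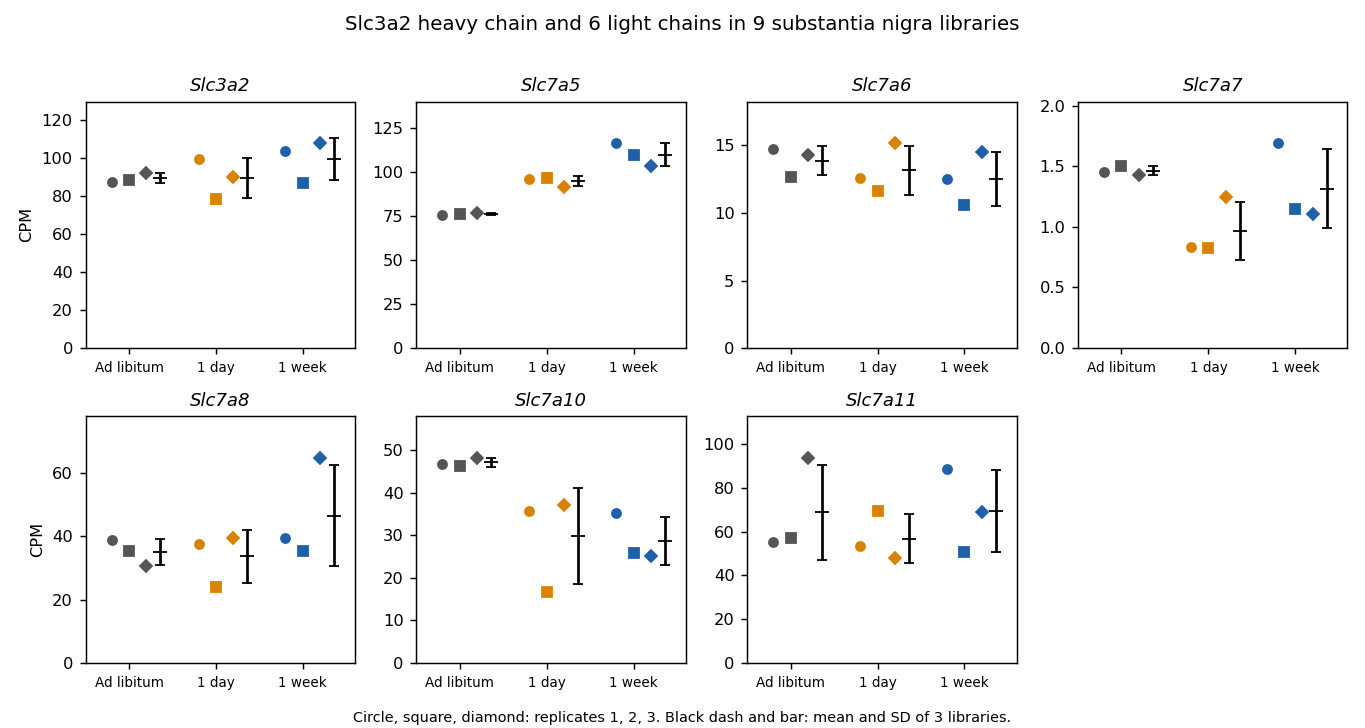
Levels of the heavy chain Slc3a2 and of 6 light chains in the 9 libraries. The vertical axis is CPM and starts at 0, each symbol is 1 library, and the black dash and bar are the mean and SD of 3 libraries. The 3 groups of Slc7a5 are separate, and Slc7a10 was lower in all fasted libraries without passing the test.

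Genes upstream of Atf4 gave a similar picture. Of 19 eIF2α kinases, eIF2 and eIF2B subunits and their regulators, 0 rose and 0 fell after 1 day and after 1 week. The median log2 fold changes were 0.03 and 0.05. After 1 day 4 of the 19 lay wholly above the ad libitum libraries (8.17% of all genes) and 0 wholly below (10.3%). After 1 week 2 lay wholly above (10.9%) and 0 wholly below (11.5%). Eif2ak4, which encodes GCN2, was at 29.6, 30.0 and 28.7 CPM in ad libitum mice, at 30.9, 29.7 and 32.5 CPM after 1 day and at 29.1, 30.8 and 29.1 CPM after 1 week, and its groups overlapped. Eif2ak3, which encodes PERK, had log2 fold changes of 0.03 (adjusted p 0.926) and 0.08 (adjusted p 0.853). Ppp1r15a, which encodes the GADD34 subunit that removes the phosphate from eIF2α, was at 10.05, 10.7 and 10.2 CPM in ad libitum mice, at 13.3, 12.1 and 13.8 CPM after 1 day and at 12.2, 13.3 and 11.9 CPM after 1 week. All 6 fasted libraries of Ppp1r15a were above the ad libitum libraries, at 1.27-fold (adjusted p 0.454) and 1.21-fold (adjusted p 0.398).

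Among 16 measured bZIP factors that pair with ATF4 or CHOP, 0 passed the test in either comparison. Atf3, an early stress target, was at 0.363, 0.550 and 0.542 CPM in ad libitum mice, at 0.810, 0.929 and 0.922 CPM after 1 day and at 0.559, 0.491 and 1.18 CPM after 1 week. Its 1 day libraries were above and its 1 week libraries overlapped, with log2 fold changes of 0.87 (SE 0.36, adjusted p 0.528) and 0.61 (SE 0.36, adjusted p 0.587). For Cebpd the log2 fold change after 1 week was 1.16 (SE 0.40, adjusted p 0.315). For Fos, an immediate early gene of neuronal activity, that after 1 day was 1.76 (SE 0.45, adjusted p 0.356).

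Downstream, 39 other known targets of ATF4 and CHOP were measured. After 1 day 1 rose and 0 fell, where 0.0584% of all genes were called in either direction. After 1 week 2 rose and 0 fell, where that share was 0.307%. The genes that rose were Ddit4 in both comparisons and Slc7a5 after 1 week. The median log2 fold changes of this list were -0.02 and 0.08. After 1 day 8 of the 39 lay wholly above the ad libitum libraries (8.17% of all genes) and 4 wholly below (10.3%). After 1 week 7 lay wholly above (10.9%) and 4 wholly below (11.5%). Ddit4, which encodes the mTORC1 inhibitor REDD1, was at 37.4, 42.3 and 34.7 CPM in ad libitum mice, at 117, 96.9 and 79.7 CPM after 1 day and at 100, 161 and 130 CPM after 1 week. All fasted libraries were above all ad libitum libraries, at 2.57-fold (log2 fold change 1.36, SE 0.19, adjusted p 0.0478) and 3.42-fold (log2 fold change 1.78, SE 0.19, adjusted p 0.00663). The 1 day call was lost under 11 of 18 alternatives, among them without any 1 of the ad libitum or 1 day libraries or replicate 3 of the 1 week group, with adjusted p up to 0.326. The 1 week call was lost without replicate 1 or replicate 3 of the ad libitum group, at up to 0.0719.

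Ddit4 is known as a target of the glucocorticoid receptor as well as of ATF4. A list of 12 such receptor targets that includes it had 5 genes that rose after 1 day and 9 after 1 week, with 0 that fell. Of all genes tested, 0.0584% and 0.307% were called in either direction. The median log2 fold changes of the 12 listed genes were 1.25 and 1.97. This list was drawn up with earlier results of these libraries known, so its counts and medians are no independent result. Sgk1, a kinase gene of that list, was at 51.9, 40.6 and 49.9 CPM in ad libitum mice, at 256, 153 and 239 CPM after 1 day and at 287, 255 and 311 CPM after 1 week. Sgk1 rose 4.55-fold (adjusted p 0.00468) and 5.99-fold (adjusted p 0.00154), and its 1 day call was lost without any 1 ad libitum library, at up to 0.0792. Sesn2, another ATF4 target that restrains mTORC1, was at 20.4, 19.4 and 18.4 CPM in ad libitum mice, at 21.7, 14.0 and 21.7 CPM after 1 day and at 22.1, 19.6 and 20.8 CPM after 1 week. Its groups overlapped, at adjusted p of 0.980 and 0.863. The difference between Sesn2 and Ddit4 was not tested, and neither was the cause of the Ddit4 rise.

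**Figure D4:**
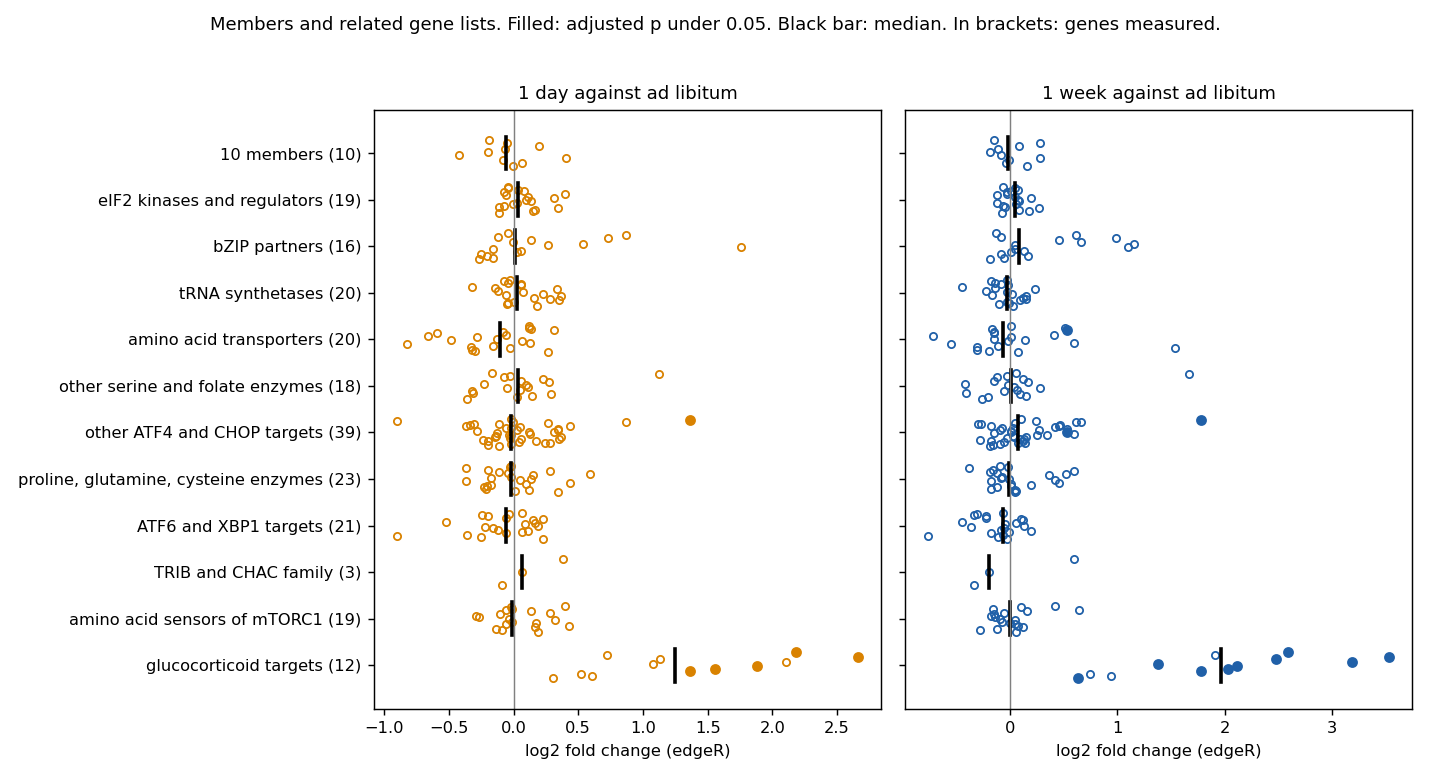
log2 fold changes of the 10 genes and of related gene lists, for each fasted group against ad libitum. Each circle is 1 gene, filled circles have an adjusted p under 0.05, the black bar is the list's median and the number in brackets is how many genes were measured. The medians of the glucocorticoid receptor targets, 1.25 and 1.97, are the highest of the lists drawn. That list was drawn up with earlier results of these libraries known, so its rank is no independent result. Some genes stand in more than 1 list.

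Of 20 cytosolic aminoacyl-tRNA synthetases, which charge transfer RNAs and are known ATF4 targets, 0 passed in either comparison, with medians of 0.03 and -0.03. The 3 with the smallest p in either comparison were Iars and Farsb, by their 1 week p, and Hars, by its 1 day p. After 1 week Hars was at 1.18-fold (adjusted p 0.674), Iars at 0.855-fold (adjusted p 0.393) and Farsb at 0.734-fold (adjusted p 0.446). Of the 20 estimates, 11 were above 0 after 1 day and 7 after 1 week. After 1 week 7 of 20 lay wholly below the ad libitum libraries (11.5% of all genes) and 2 wholly above (10.9%). Between 1 week and 1 day 1 of 20 was above 0, with a median of -0.10 against -0.0008 for all genes, and 0 were called. Of the 20, 1 lay wholly below the 1 day libraries (3.28% of all genes) and 0 wholly above (4.50%). Of the 18 other serine, glycine and folate enzymes measured, 0 passed, with medians of 0.04 and 0.01. Psph, the third enzyme of serine synthesis, was at 8.98, 8.51 and 8.47 CPM in ad libitum mice, at 7.90, 8.13 and 7.06 CPM after 1 day and at 8.53, 9.08 and 9.38 CPM after 1 week. Unlike Psat1, it lay below the ad libitum libraries after 1 day and overlapped with them after 1 week, at adjusted p of 0.619 and 0.904. Shmt1, the cytosolic enzyme that converts serine to glycine, was at 0.509, 0.781 and 0.975 CPM in ad libitum mice, at 1.72, 1.81 and 1.43 CPM after 1 day and at 1.68, 1.88 and 3.65 CPM after 1 week. All fasted libraries of Shmt1 were above, at 2.18-fold (adjusted p 0.426) and 3.17-fold (adjusted p 0.102). Amt, of the glycine cleavage system, and Aldh1l2, a mitochondrial folate enzyme, lay on the other side, with all fasted libraries below the ad libitum libraries. Amt was at 0.805-fold (adjusted p 0.485) and 0.752-fold (adjusted p 0.189), and Aldh1l2 at 0.853-fold (adjusted p 0.583) and 0.748-fold (adjusted p 0.285). Shmt2, the mitochondrial counterpart of Shmt1 and the one known as an ATF4 target, had log2 fold changes of -0.03 in both (adjusted p 0.948 and 0.960).

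Among the 20 amino acid transporters, Slc7a5 was the 1 that rose, after 1 week, where 0.307% of all genes were called, and 0 fell. Slc38a3, a glutamine transporter of astrocytes, was at 78.5, 71.7 and 82.6 CPM in ad libitum mice, at 50.9, 33.0 and 47.3 CPM after 1 day and at 62.2, 43.2 and 53.8 CPM after 1 week. All fasted libraries of Slc38a3 were below, at 0.564-fold (adjusted p 0.187) and 0.684-fold (adjusted p 0.275). In the proline, glutamine and transsulfuration list 0 of 23 genes passed. Prodh, which breaks down proline, was at 23.5, 27.0 and 25.3 CPM in ad libitum mice and at 36.6, 36.05 and 41.8 CPM after 1 week, a 1.51-fold difference at an adjusted p of 0.0683. Cbs, the first enzyme of transsulfuration, was at 1.35-fold (adjusted p 0.400) and 1.37-fold (adjusted p 0.195), and Gpt2, an alanine transaminase, at 1.04-fold (adjusted p 0.879) and 1.33-fold (adjusted p 0.219). Of 19 amino acid sensors of mTORC1, 0 passed. After 1 week the arginine sensor Castor1 was at 1.56-fold (adjusted p 0.224), Sesn1 at 1.34-fold (adjusted p 0.251) and Lamtor5 at 0.823-fold (adjusted p 0.458).

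The unfolded protein response of the endoplasmic reticulum reaches ATF4 through PERK and has separate arms through ATF6 and XBP1. Of 21 targets of those arms 0 passed in either comparison, with medians of -0.06 and -0.07. Hspa5, the chaperone BiP, had log2 fold changes of 0.07 (adjusted p 0.869) and -0.07 (adjusted p 0.906). The folding factors Pdia3 and Calr were at 0.792-fold (adjusted p 0.276) and 0.777-fold (adjusted p 0.454) after 1 week. Of the 3 relatives of Trib3 and Chac1, Trib1 was above the ad libitum libraries in every fasted library, at 1.31-fold (adjusted p 0.466) and 1.51-fold (adjusted p 0.107). Trib2 and Chac2 were at 1.04-fold (adjusted p 0.870) and 0.940-fold (adjusted p 0.855) after 1 day and at 0.874-fold (adjusted p 0.651) and 0.791-fold (adjusted p 0.517) after 1 week, and 0 of 3 passed.

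After 1 week of intermittent fasting the members did not differ in a callable way from 1 day of fasting. All 10 overlapped between the 2 groups, where 4.50% of all genes lay wholly higher after 1 week and 3.28% wholly lower. Adjusted p ran from 0.853 to 0.981. Atf5 was at 1.26-fold of its 1 day level (interval 0.951-fold to 1.67-fold) and Chac1 at 1.26-fold (interval 0.837-fold to 1.90-fold), the 2 largest differences. Psat1 was at 0.915-fold (interval 0.742-fold to 1.13-fold) and Atf4 at 1.02-fold (interval 0.828-fold to 1.27-fold).

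Replicate 2 of the 1 day group held the extremes of most members. Atf4, Atf5, Asns, Chac1 and Slc3a2 (5 members) had their lowest value of all 9 libraries there, and Ddit3, Psat1 and Mthfd2 (3 members) their highest. How many of all genes had an extreme in that library was not counted. The median absolute log2 difference of the members from the group's other 2 libraries was 0.43, against 0.30 for all genes in that library. In the other 8 libraries it was 0.07 to 0.26 for the members and 0.11 to 0.21 for all genes. Members that are known as targets of one factor, such as Chac1 at 0.454-fold and Mthfd2 at 1.52-fold of the other 2 libraries' mean, lay on opposite sides. This library and replicate 2 of the 1 week group had mitochondrial transcript shares of 2.39% and 2.13%, against 2.89% to 4.88% in the others. Their deviations from the means of their groups had a Pearson r of 0.41 over 16266 genes, a description of these 2 libraries over genes that are not independent.

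Among the genes whose pattern over the 9 libraries was most like that of Atf4, by the root mean square difference of z-scored log2 CPM among 16265 genes, were Eya3, Tmem175, Slc35b2 and Prune1, at 0.106 to 0.136. Each had its low points in replicate 2 of the 1 day group and of the 1 week group, as Atf4 did. Eya3, the closest, was at 32.0, 31.2 and 30.9 CPM in ad libitum mice, at 29.8, 21.0 and 29.9 CPM after 1 day and at 28.8, 23.5 and 28.9 CPM after 1 week. Among the members, Asns ranked nearest at place 1111 and Chac1 followed at 2384, while Psat1 was at place 15670, near the far end.

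Totals per library ranged from 36109995 to 54248856 counts. Th, the enzyme of dopamine synthesis that marks the region's neurons, was present in every library, between 76.1 and 296 CPM. Its mean was 181 CPM in ad libitum mice, 109 CPM after 1 day and 208 CPM after 1 week. The groups overlapped, at edgeR adjusted p of 0.546 and 0.882 against ad libitum. None of the 12 dopaminergic markers was at 0 in any library. Of these 12 estimates 4 were above 0 after 1 day and 9 after 1 week, with median log2 fold changes of -0.33 and 0.17. Between 1 week and 1 day 11 were above 0, with a median of 0.31, and 0 of the 12 passed in any comparison. Levels of neighbouring tissue varied too. The summed level of 6 cortical and hippocampal markers reached 1349 CPM in the third replicate of the 1 week group, against 224 to 405 CPM in the others, and that of 7 choroid plexus markers was 389 CPM in replicate 3 of the ad libitum group and 20.0 to 58.8 CPM elsewhere. Microglial markers (13 genes) summed to between 374 and 417 CPM in ad libitum mice, 263 and 317 CPM after 1 day and 240 and 378 CPM after 1 week, with 0 called. The medians of these 13 log2 fold changes were -0.48 and -0.30. Of 14 oligodendrocyte markers 2, Trf and Ugt8a, fell after 1 week and 0 passed after 1 day, while the medians were -0.39 and -0.40, and 9 of 14 lay wholly below the ad libitum libraries in each comparison, against 10.3% and 11.5% of all genes. The part of tissue make-up in the members' values was not tested.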

How the data were processed

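Per the labels' protocols, the RNeasy Lipid Tissue Mini kit gave the RNA, and polyA libraries came from the NEBNext Ultra II Directional kit. The submitters' processing notes name Salmon, DESeq2 1.40.2 and the builds GRCm39 and mm39. The sources used here do not give the annotation release, the use of strand or the row filter. The deposited values are estimated counts per gene and library, whole numbers not scaled to depth, and the lowest row mean is 9.89 counts. Salmon divides reads between similar transcripts, so close copies are uncertain.

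From these, edgeR 4.0.16 in R 4.3.3 computed TMM factors, filtered low counts (minimum count 10, minimum total count 15, 56 rows removed) and fitted a quasi-likelihood model with robust dispersions to all 9 libraries. Tests were two-sided, with Benjamini-Hochberg adjustment over 20535 genes and a threshold of 0.05. Standard errors came from the F statistics. Levels are CPM on the TMM scale. Exon lengths came from a GRCm38 annotation by gene identifier, and promoters from RefSeq tables of GRCm38.p6. No pair of libraries agreed within sampling noise (lowest chi-square per gene 26.4 over 36 pairs). The steps were tested on simulated data.

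The members and lists were chosen with earlier results of these data known. Named genes were drawn by a rule: all members, genes of the lists past the threshold or, where fewer than 3 passed, those with the smallest p up to 3 per list, Sgk1, Ddit4, Sesn2 and Th, and the 5 genes closest to Atf4. Not all genes that the rule names are described, and 1 of the 5 is not reported here. The other Slc7 light chains, Eif2ak3, Eif2ak4, Psph, Shmt2, Hspa5 and Atf3 were named for their role, and the markers Gjb6, Slc2a1, Trf and Ugt8a because they passed the test, after their values were seen. Alternatives were DESeq2 1.42.0, voom with quality weights (limma 3.58.1), RLE and upper-quartile factors, no filter, a filter of 1 CPM in 6 libraries, only the 6 libraries compared, the replicate number as a block, and leaving out libraries.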

Additional observations from a re-analysis of the deposited data

How the results depend on the processing

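Under every alternative run, 0 of the 10 members passed the test in each of the 3 comparisons, and the lowest adjusted p was 0.126, for Psat1 after 1 week without replicate 2 of the 1 day group. Of 537 member values under the alternatives, 478 kept the sign of the reported value and 59 did not. Trib3 was removed by the filter of 1 CPM in 6 libraries and has no value there. The number of all genes called moved more. Against 12 genes after 1 day, DESeq2 called 180, voom 57, the fit of only the 6 libraries compared 26, and the fit without both libraries that stood apart 50. Against 63 genes after 1 week, DESeq2 called 458, voom 218 and the fit of 6 libraries 155. Against 0 genes between 1 week and 1 day, DESeq2 called 3. Leaving out 1 library at a time gave 0 to 22 genes after 1 day, 8 to 121 after 1 week and 0 to 3 between them. The cause of these differences was not tested. With the replicate number as a block, 2 genes were called after 1 day, 32 after 1 week and 0 members in either, and the 1 week call of Slc7a5 was lost (adjusted p 0.105), as was the 1 day call of Ddit4 (adjusted p 0.0730). Same-numbered libraries correlated at -0.24 to 0.41 in their deviations from the group means, over 0.1 in 3 of 9 pairs. Libraries of unlike number correlated at -0.33 to 0.27. Deviations within a group of 3 are not independent, so these values cannot show whether the numbers pair the libraries. The labels state no pairing. The alternatives for Slc7a5, Ddit4 and Sgk1 were chosen after seeing the data. Depth limits Trib3 most, at 13 to 41 counts per library.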
